A study of Rattus norvegicus with 49 samples.

Results

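Autophagy and lysosome genes were described in the livers of 49 male Sprague Dawley rats that were fed freely or placed on a restricted diet. The gene set was chosen by symbol from the known parts of the pathway, with earlier results of these data known. It holds 43 genes, of which 40 were measured among the 14217 genes of the array. Each gene was read from the probe set that carried its symbol alone and had the highest mean over all rats. Map1lc3b and Gabarapl2 were carried only by probe sets that also name a second gene (Map1lc3b2 and Gabarapl3), and Npc1 was named by no probe set in the annotation used here. No measured member fell below log2 5.21, the level under which 30% of all values lay.

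Groups 1 and 2 ate powdered feed without limit, and groups 3, 4 and 5 had rations 15%, 30% and 60% below that, in this order. Groups 2 to 5 were fasted overnight before necropsy and group 1 was not, according to the sample labels, although the design text of the deposit says that all were. Livers were taken after 4 or 14 days on the diet, named day 4 and day 14 here, from 5 rats of each group at each time, or 4 for group 1 on day 14. The rats were about 8 to 10 weeks old and weighed about 250 to 350 g at the start, and they were housed in groups or pairs, with no label for the cage. Each comparison with group 2 on a given day uses the same 5 control rats, so these comparisons share their controls. The values are log2 of the deposited intensity, which ranks rats for a gene but not genes against each other. The number of arrays limits the precision of each value. In whole liver, fewer cells of a type and less RNA per cell cannot be told apart. Of 10 hepatocyte markers, 9 were measured, with means from 12.44 (Hnf4a) to 14.99 (Alb) on the log2 scale.

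Macroautophagy encloses cytoplasm, organelles or stored material in a membrane sac, the autophagosome, which then fuses with the lysosome, an acidic compartment filled with hydrolases. In the liver this recycling supplies amino acids, lipids and glucose between meals, and it is held back by insulin and amino acids through the mTORC1 kinase. The transcription factors TFEB and FOXO3 are known to act on genes of this pathway, TFEB by way of an E-box motif.

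The promoters of 4 members called in group 5 are shown first, chosen after their values were seen as examples with the longer form of that motif (Gaa and Ctsd), with the short form alone (Bnip3) and with neither (Gabarapl1). Gabarapl1 and Bnip3 rose with 60% food restriction and Gaa and Ctsd fell, as described further on, and Gaa and Ctsd ranked below several other members by the size of their change. Each line gives the 250 bases before the transcription start, written 5′ to 3′ on the strand of the gene, from RefSeq on the build GRCr8. Capitals mark CACGTG, or the longer GTCACGTG or its reverse complement CACGTGAC where present. For Gaa the start used lies within the annotated span of the gene.
Gabarapl1 (chr4:164666082-164666331, plus strand): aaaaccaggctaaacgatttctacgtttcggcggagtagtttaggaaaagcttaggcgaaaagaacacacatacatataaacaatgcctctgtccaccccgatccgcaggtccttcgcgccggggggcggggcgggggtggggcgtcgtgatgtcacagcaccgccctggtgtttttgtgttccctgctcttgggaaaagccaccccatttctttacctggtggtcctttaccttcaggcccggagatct
Bnip3 (chr1:203154963-203155212, minus strand): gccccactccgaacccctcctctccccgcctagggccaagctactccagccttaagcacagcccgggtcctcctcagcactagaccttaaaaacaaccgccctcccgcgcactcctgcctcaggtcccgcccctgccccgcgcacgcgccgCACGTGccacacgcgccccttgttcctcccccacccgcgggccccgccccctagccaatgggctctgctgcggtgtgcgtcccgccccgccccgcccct
Gaa (chr10:105028105-105028354, plus strand): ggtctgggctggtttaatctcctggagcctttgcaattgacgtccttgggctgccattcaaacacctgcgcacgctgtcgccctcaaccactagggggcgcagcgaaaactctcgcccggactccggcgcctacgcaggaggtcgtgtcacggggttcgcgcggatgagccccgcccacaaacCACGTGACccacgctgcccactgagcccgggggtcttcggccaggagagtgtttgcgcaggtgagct
Ctsd (chr1:206968822-206969071, minus strand): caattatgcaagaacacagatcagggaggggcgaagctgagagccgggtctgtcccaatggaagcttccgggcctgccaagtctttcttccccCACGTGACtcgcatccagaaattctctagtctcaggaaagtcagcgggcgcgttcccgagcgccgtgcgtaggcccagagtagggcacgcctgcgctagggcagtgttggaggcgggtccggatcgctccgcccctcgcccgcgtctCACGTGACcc
The E-box CACGTG was present in the promoters of 9 of 36 members that had one in the table (25.0%), against 5.59% of all 33469 promoters and 7.57% of the 13242 promoters of genes tested here. The longer GTCACGTG, which contains the E-box and was sought on both strands, was found in 6 members (16.7%, against 1.63% of all promoters and 2.95% of those of genes tested). These were Atg3, Lamp1, Ctsd, Gaa, Glb1 and Atp6v0d1. The E-box alone was found in Bnip3, where it begins 99 bases before the start, and in Atg5 and Cd63. A forkhead motif, TGTTTAC on either strand, was found in none of the 36 members, in 3.21% of all promoters and in 2.28% of those of genes tested. At shares this low, its absence from 36 promoters says little. These counts describe letters in a window and not binding. The members that rose and those that fell in group 5 both included promoters with and without the E-box.

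The largest changes with diet belonged to a pair of autophagy genes. Gabarapl1, a ubiquitin-like protein of the autophagosome membrane, and Bnip3, a receptor that marks mitochondria for removal, were lower in the unfasted rats and higher in rats with 60% less food on day 14 than in the fasted controls. The largest changes of lysosomal genes were smaller than those of this pair. Without the fast, though, Ctsl fell by 0.60 on day 4 and 0.52 on day 14, against 0.61 and 0.40 for Gabarapl1. The lysosomal genes called in the restricted rats were mostly lower, among them Lamp2, Gaa and Lipa. Group means of Bnip3 spanned 1.79 on the log2 scale and those of Gabarapl1 1.21, followed by Wipi1 with 0.73 and Cd63 with 0.71. The smallest span, 0.09, belonged to Gabarap, a close relative of Gabarapl1.

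Genes were called where limma gave an adjusted p under 0.1, adjusted over all 14217 genes. Some counts at an unadjusted p under 0.05 are also given. All genes were not counted at that threshold, so these counts cannot be set against the shares of all genes called. Without the fast, 2 members were higher and 11 lower than in group 2 on day 4, that is 32.5% of the 40 members, where 21.3% of all genes were called, 9.76% higher and 11.5% lower. On day 14, 2 were higher and 5 lower, 17.5% of members against 13.2% of all genes (7.26% higher and 5.92% lower). Food restriction called no member in group 3 on day 4 (0.253% of all genes; 4 members had an unadjusted p under 0.05), 2 lower in group 4 (5.43% of all genes, 2.38% lower) and 3 lower in group 5 (7.14%, 3.58% lower). On day 14 there were 2 higher and 1 lower in group 3 (6.54% of all genes, 3.4% higher and 3.14% lower), 5 higher and 4 lower in group 4 (12.8%, 6.52% higher and 6.24% lower), and 3 higher and 8 lower in group 5 (19.8%, 8.88% higher and 10.9% lower). The shares of members called on day 14, 7.5% in group 3, 22.5% in group 4 and 27.5% in group 5, were thus of the order of the shares of all genes. The median change of the members in group 5 on day 14 was −0.09, against 0.003 for all genes, and 13 of the 40 changes were positive.

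In all, 22 members (55%, against 41.4% of all genes) were called in at least 1 of the 8 comparisons with group 2 and 18 in none. Restricted diets accounted for calls in 14 members (35%, against 27.3% of all genes), 5 of them higher (12.5%, against 13.6%) and 9 lower (22.5%, against 13.9%), and no member was called in both directions. The count in group 5 on day 14 fell from 11 to 7 without group 2 replicate 1, 2 or 5 or group 5 replicate 2, and rose to 18 (45%, against 27.5% of all genes) in a fit of all 10 group and day means together, where the calls of Wipi1, Wipi2 and Pik3c3 were nevertheless lost. In group 4 on day 4, the 2 calls became 0 without group 2 replicate 4 or group 4 replicate 2 or 4, and 1 without any of group 2 replicates 1, 2, 3 and 5 or group 4 replicates 3 and 5. In group 3 on day 14, the 3 calls became 1 without group 2 replicate 5 or group 3 replicate 1, 2, 4 or 5.

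**Figure D1:**
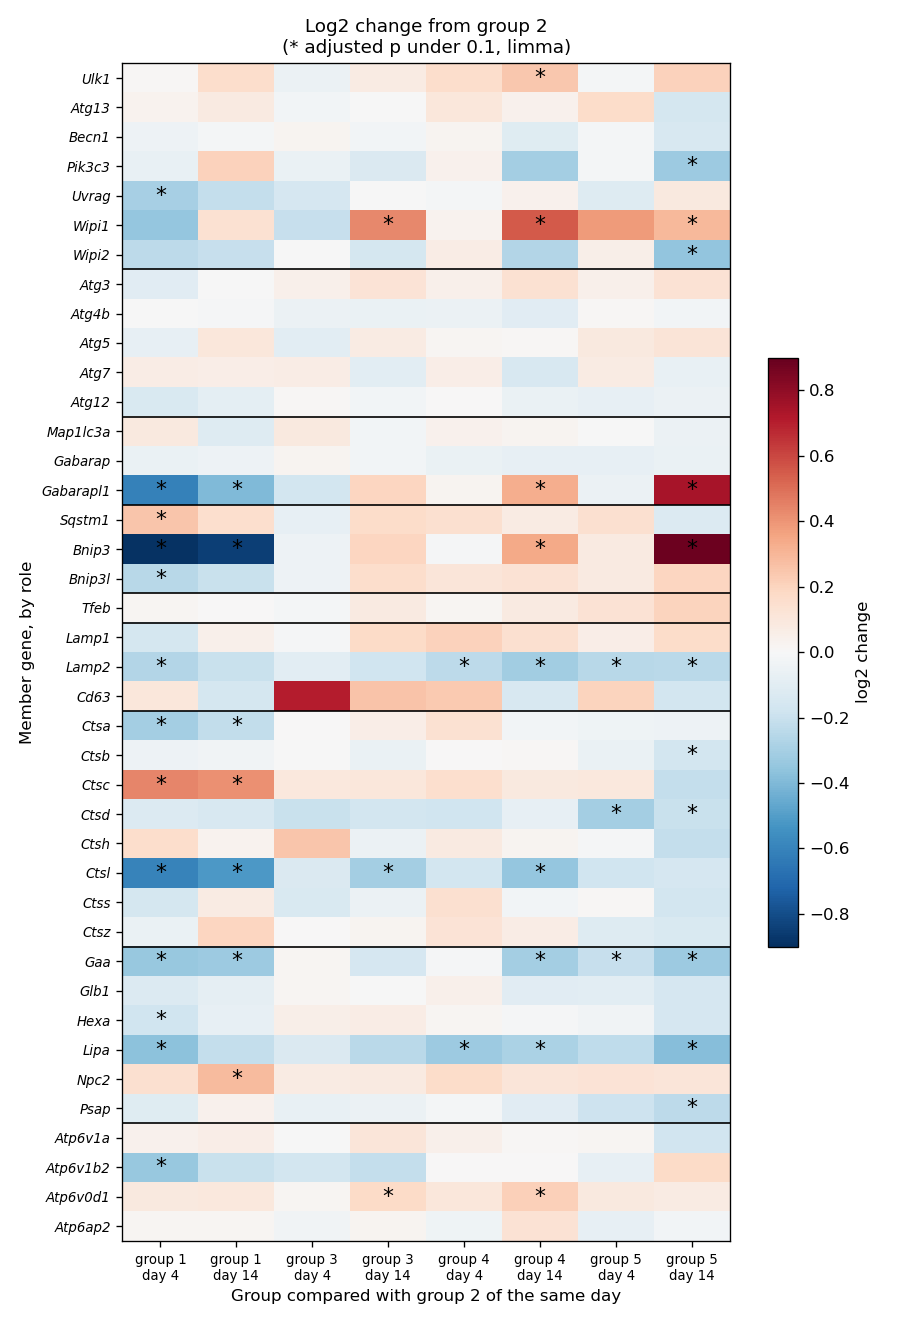
Log2 change of each of the 40 measured members (rows, grouped by role with black lines between roles) in groups 1, 3, 4 and 5 against group 2 of the same day (columns), on a colour scale from blue (lower) to red (higher), with a star where limma gave an adjusted p under 0.1. Among the darkest cells are those of Bnip3, blue in group 1 on both days and red in group 5 on day 14. Gabarapl1 is also dark red in group 5 on day 14, and it is blue in group 1, less strongly on day 14. Lamp2 is starred and blue in 5 of the 8 columns.

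Among the genes that start the autophagosome, 5 of 7 measured members were called against group 2 at least once, where 41.4% of all genes were. Wipi1 and Ulk1 were higher, and Pik3c3, Wipi2 and Uvrag lower. The products of the 7 genes are the ULK1 kinase and its partner Atg13, the lipid kinase Pik3c3 with Becn1 and Uvrag, and the lipid-binding proteins Wipi1 and Wipi2. Wipi1 measured 7.96, 7.91, 8.11, 7.78 and 7.72 in the fasted controls on day 14. It measured 8.40, 8.34, 7.95, 8.35 and 8.60 in group 3, 8.37, 8.08, 8.99, 8.34 and 8.46 in group 4, and 8.25, 8.27, 7.99, 8.34 and 8.09 in group 5. Of the 5 rats, 4 lay above all controls in group 3, 4 in group 4 and 3 in group 5, so each group overlapped the controls. The changes from group 2 were 0.43 in group 3 (standard error 0.11, adjusted p = 0.0528), 0.55 in group 4 (standard error 0.14, adjusted p = 0.0331) and 0.29 in group 5 (standard error 0.09, adjusted p = 0.0544). The probe set that gave these values was the brighter of a pair, and the dimmer one had a change of 0.05 in group 5 (adjusted p = 0.828 over all probe sets). The calls in groups 3 and 5 were lost with the mean of both probe sets (adjusted p = 0.151 and 0.117) and in a fit of all 10 group and day means (adjusted p = 0.143 and 0.254). They were also lost on leaving out 1 rat, in group 3 without group 2 replicate 4 or 5 or group 3 replicate 1, 2, 4 or 5 (adjusted p up to 0.124) and in group 5 without group 2 replicate 4 or 5 or group 5 replicate 1, 2 or 4 (adjusted p up to 0.126). The highest group mean of Wipi1, 8.54, was that of group 5 on day 4. Those rats, at 7.95 to 9.22, overlapped the day 4 controls, at 7.94 to 8.85. The change there was 0.38 (adjusted p = 0.539 in limma over all probe sets).

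The other members of this role were called in single comparisons. Ulk1, the kinase that starts autophagy, measured 9.06, 9.11, 9.17, 8.96 and 9.12 in the day 14 controls and 9.16, 9.34, 9.30, 9.27 and 9.57 in group 4. The lowest rat of group 4 lay within the range of the controls, and the change of 0.25 (standard error 0.08, adjusted p = 0.0795) lost its call without group 2 replicate 1, 2, 4 or 5 or group 4 replicate 2, 3, 4 or 5, with an adjusted p of up to 0.162, and with the mean of the gene's probe sets (adjusted p = 0.152). Pik3c3, the kinase that makes the lipid PI3P on the growing membrane, measured 8.84, 8.97, 8.50, 8.49 and 8.52 in the controls and 8.36, 8.33, 8.26, 8.49 and 8.27 in group 5. Its fall by 0.32 (standard error 0.10, adjusted p = 0.0557) rested in part on the 2 highest control rats, and the call was lost without group 2 replicate 1 or 2 or group 5 replicate 5 (adjusted p up to 0.130) and in a fit of all 10 group and day means (adjusted p = 0.144). Wipi2, which recruits the conjugation machinery, measured 9.39, 9.66, 9.52, 9.16 and 9.36 in the controls and 9.04, 9.07, 9.38, 8.69 and 9.11 in group 5, and these ranges overlapped. Its fall by 0.36 (standard error 0.12, adjusted p = 0.0775) remained called in the fits without group 2 replicate 4 or without group 5 replicate 3, and was lost without any other rat (adjusted p up to 0.166), in a fit of all 10 group and day means (adjusted p = 0.165) and after a further quantile normalization (adjusted p = 0.127). Wipi1 and Wipi2 are related proteins, and in group 5 on day 14 they were called in opposite directions.

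Uvrag, a partner of Pik3c3, fell by 0.30 in the unfasted rats on day 4 (standard error 0.07, adjusted p = 0.0160), from 9.04 to 9.29 in the controls to 8.73 to 9.03 without overlap. Atg13 and Becn1 were called in no comparison with group 2. Becn1, the scaffold of the lipid kinase complex, had group means between 9.92 and 10.06 throughout. In group 5 on day 14 its change was −0.14 (95% interval −0.26 to −0.02, adjusted p = 0.112).

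No gene of the ubiquitin-like conjugation system, read from its brightest probe set, was called against group 2 on either day. These 5 members attach LC3 and GABARAP proteins to the membrane: Atg7 activates them, Atg3 transfers them, Atg4b trims them, and Atg12 and Atg5 form the ligase. Their group means spanned 0.31 for Atg3, 0.20 for Atg7, 0.19 for Atg12 and Atg5, and 0.11 for Atg4b. In group 5 on day 14 none of the 5 had an unadjusted p under 0.05 from limma. A dimmer probe set each of Atg5 and Atg12 was lower in group 1 on day 4 in limma over all probe sets. The changes were −0.16 (adjusted p = 0.0785) for Atg5 and −0.19 (adjusted p = 0.0919) for Atg12. The list of 11 other genes of conjugation and membrane supply had 3 higher and 4 lower in group 1 on day 4 (63.6%, against 21.3% of all genes) and 3 higher and 2 lower on day 14 (45.5%, against 13.2%), and none called in group 3, 4 or 5 on day 14.

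Within the LC3 and GABARAP family, only Gabarapl1 of the 3 measured members was called. On day 14 the unfasted rats measured 11.43, 11.46, 11.60 and 11.59, and the fasted controls 11.93, 11.89, 11.94, 11.91 and 11.92. The restricted rats measured 12.33, 12.09, 12.07, 11.97 and 12.06 in group 3, 12.38, 12.30, 12.24, 12.13 and 12.18 in group 4, and 12.74, 12.53, 12.71, 12.44 and 12.86 in group 5. All unfasted rats lay below the controls, all restricted rats lay above them, and group 5 lay above groups 3 and 4, which overlapped each other. Against group 2, Gabarapl1 fell by 0.40 in group 1 (standard error 0.06, adjusted p = 0.00293) and rose by 0.33 in group 4 (1.26-fold, standard error 0.06, adjusted p = 0.00621) and by 0.74 in group 5 (1.67-fold, standard error 0.08, adjusted p = 0.000127). The change of 0.19 in group 3 did not pass (standard error 0.07, adjusted p = 0.167).

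The day 4 pattern of Gabarapl1 was different among the restricted rats. The unfasted rats measured 11.23, 11.58, 11.45, 11.58 and 11.34, and the controls 12.08, 12.08, 11.88, 12.13 and 12.06. The rats of group 5 measured 12.02, 11.73, 11.85, 12.13 and 12.25, on both sides of the controls. Group 1 was lower by 0.61 (0.655 times the control level, standard error 0.08, adjusted p = 0.000485), without overlap. Group 5 differed from group 2 by −0.05 (95% interval −0.26 to 0.16, adjusted p = 0.846). The difference between the days of the change in group 5 was 0.79 (standard error 0.13, adjusted p = 0.0107), the only interaction called among the members. A second, dimmer probe set of Gabarapl1 had changes of −0.56 in group 1 on day 4 and 0.60 in group 5 on day 14.

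Gabarap and Map1lc3a did not share this pattern. Gabarap measured 12.47, 12.49, 12.52, 12.56 and 12.55 in the day 14 controls and 12.43, 12.46, 12.52, 12.47 and 12.41 in group 5, a change of −0.06 (95% interval −0.18 to 0.06). Map1lc3a, an LC3 protein, measured 9.54, 9.55, 9.33, 9.61 and 9.24 in the controls and 9.39, 9.48, 9.63, 9.41 and 9.08 in group 5, a change of −0.06 (95% interval −0.29 to 0.18). Both genes overlapped between the groups.

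**Figure D2:**
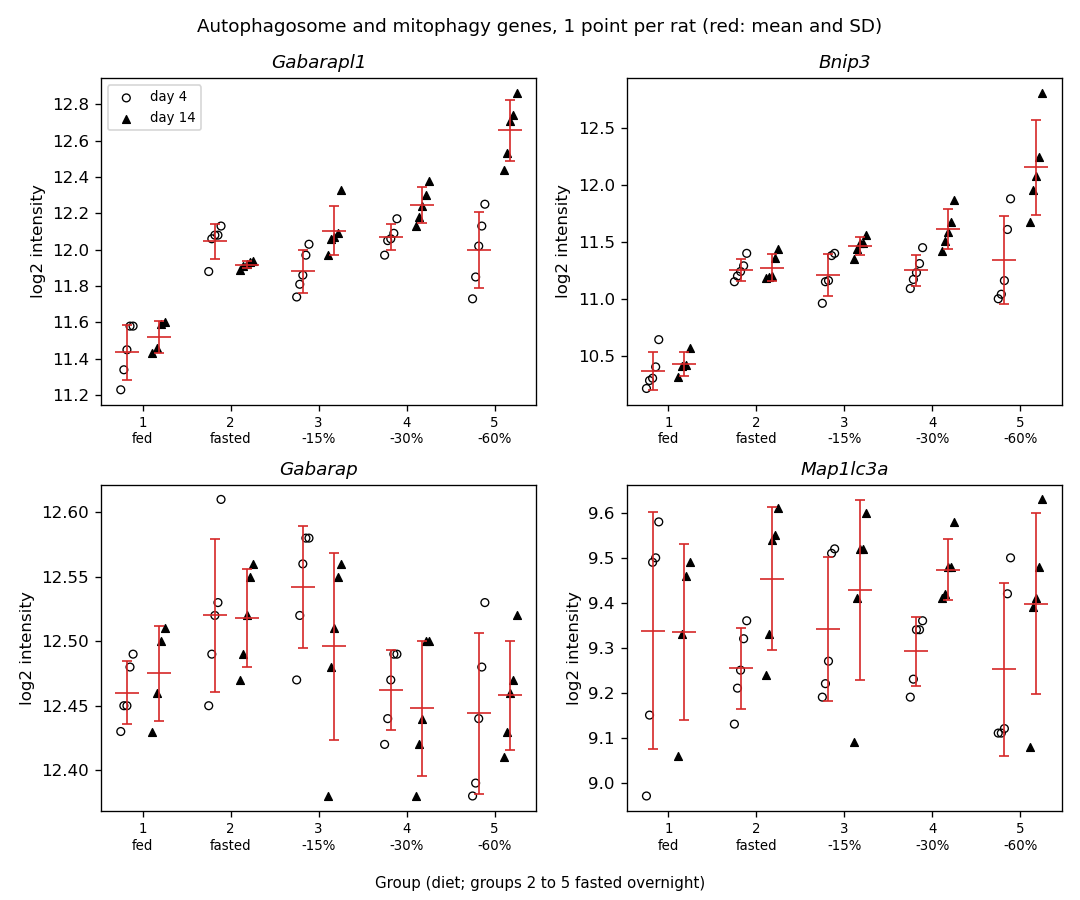
Log2 intensity of Gabarapl1, Bnip3, Gabarap and Map1lc3a (y axes, with a scale for each gene) in every rat by group (x axis), with open circles for day 4 and filled triangles for day 14; red bars give the mean and the SD. For Gabarapl1 and Bnip3 the unfasted rats lie lowest and group 5 on day 14 highest, while Gabarap stays between 12.38 and 12.61 in all rats.

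Among the 3 receptors that load cargo, Bnip3 changed the most. On day 14 Bnip3 measured 10.41, 10.31, 10.57 and 10.42 in the unfasted rats and 11.18, 11.19, 11.36, 11.20 and 11.44 in the controls. It measured 11.49, 11.56, 11.49, 11.44 and 11.35 in group 3, 11.87, 11.68, 11.42, 11.51 and 11.59 in group 4, and 12.25, 11.96, 11.68, 12.08 and 12.81 in group 5. The unfasted rats lay below the controls and group 5 above them, with group 3 and group 4 overlapping the top of the control range. Bnip3 fell by 0.85 in group 1 (0.555 times the control level, standard error 0.08, adjusted p = 0.000160), and rose by 0.34 in group 4 (standard error 0.09, adjusted p = 0.0405) and by 0.88 in group 5 (1.84-fold, standard error 0.17, adjusted p = 0.00432). The change of 0.19 in group 3 did not pass (adjusted p = 0.182), and the call in group 4 was lost in a fit of all 10 group and day means (adjusted p = 0.1). The rats of group 5 were spread widest, from 11.68 to 12.81.

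On day 4, Bnip3 measured 10.40, 10.21, 10.30, 10.28 and 10.64 in the unfasted rats and 11.15, 11.40, 11.20, 11.29 and 11.24 in the controls. Group 5 measured 11.04, 11.16, 11, 11.88 and 11.61. The unfasted rats were lower by 0.89 (0.540 times the control level, standard error 0.08, adjusted p = 4.01e-05), without overlap, whereas group 5 held 2 rats above all controls and 2 below. Its change was 0.08 (95% interval −0.26 to 0.43), and the interaction with day, 0.80 (standard error 0.24, adjusted p = 0.134), did not pass.

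Sqstm1, the p62 receptor of ubiquitin-tagged cargo, measured 12.67, 12.84, 12.92, 12.73 and 12.81 in the unfasted rats on day 4 and 12.61, 12.35, 12.49, 12.58 and 12.70 in the controls. The ranges overlapped at their ends. It rose by 0.25 (standard error 0.07, adjusted p = 0.0405), opposite to Bnip3 and Gabarapl1, but the call was lost with the mean of its 4 probe sets (adjusted p = 0.344). On day 14 the change in group 1 was 0.15 (adjusted p = 0.438) and that in group 5 was −0.12 (adjusted p = 0.422). Bnip3l, a relative of Bnip3 with the same role, fell by 0.25 in the unfasted rats on day 4 (standard error 0.06, adjusted p = 0.0177), from 10.56 to 10.69 in the controls to 10.20 to 10.46. In group 5 on day 14 its change was 0.20 (adjusted p = 0.156). Tfeb, the regulator of lysosomal genes, was called in no comparison, and in group 5 on day 14 its change was 0.20 (95% interval 0.02 to 0.38, adjusted p = 0.129).

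Of the 3 measured lysosomal membrane genes, Lamp2 alone was called against the fasted controls. LAMP2 coats the inner face of the lysosome and takes part in fusion with autophagosomes. On day 14 it measured 13, 13.15, 12.90, 13.18 and 13.05 in the controls, 12.80, 12.74, 12.74, 12.72 and 12.70 in group 4, and 12.77, 12.79, 12.81, 12.86 and 12.84 in group 5. Both restricted groups lay below all controls. It fell by 0.31 in group 4 (standard error 0.07, adjusted p = 0.0125) and by 0.24 in group 5 (standard error 0.07, adjusted p = 0.0315). In group 3 the change was −0.18 (adjusted p = 0.186).

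Lamp2 was already lower on day 4. The controls measured 13.16, 13.14, 13.21, 13.26 and 13.23, and group 5 measured 12.92, 12.91, 12.98, 12.96 and 12.97, a fall by 0.25 without overlap (standard error 0.05, adjusted p = 0.0143). Group 4 measured 13.11, 12.75, 12.98, 13.03 and 12.95, and its fall by 0.24 (standard error 0.07, adjusted p = 0.0970) remained called only on leaving out group 4 replicate 1 (adjusted p up to 0.197 without any other rat). The unfasted rats measured 12.99, 12.99, 12.92, 12.89 and 12.88 and were lower by 0.27 (standard error 0.05, adjusted p = 0.00452). The dimmer of the gene's probe sets showed −0.03 in group 1 on day 4 (adjusted p = 0.841 over all probe sets) and −0.66 in group 5 on day 14 (adjusted p = 0.000176), so the probe sets disagreed on the unfasted rats and agreed in direction on group 5.

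Lamp1, the other major coat protein, and Cd63, a tetraspanin of late endosomes and lysosomes, were called in no comparison with group 2. Lamp1 had a change of 0.16 in group 5 on day 14 (95% interval 0.03 to 0.30, adjusted p = 0.110), of the opposite sign to Lamp2. Cd63 had the widest spread within groups, with a median SD of 0.37, and its largest change, 0.71 in group 3 on day 4, did not pass (standard error 0.20, adjusted p = 0.236).

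Among the 8 cathepsins, Ctsl and Ctsc marked the unfasted rats in opposite directions. Ctsl, a cysteine protease that degrades proteins within the lysosome, measured 12.78, 12.85, 12.89, 12.99 and 12.74 in the unfasted rats on day 4 and 13.25, 13.59, 13.49, 13.52 and 13.42 in the controls. Ctsc, which activates other proteases by trimming them, measured 12.72, 12.63, 12.68, 12.84 and 12.67 in the unfasted rats and 12.34, 12.01, 12.35, 12.25 and 12.37 in the controls. Neither gene overlapped between the groups. Ctsl fell by 0.60 (standard error 0.07, adjusted p = 0.000334) and Ctsc rose by 0.44 (standard error 0.08, adjusted p = 0.00276). On day 14 the changes were −0.52 for Ctsl (adjusted p = 0.000881) and 0.41 for Ctsc (adjusted p = 0.0104).

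Ctsl was also lower in the restricted rats on day 14, though not in all groups. The controls measured 13.40, 13.44, 13.33, 13.46 and 13.43, group 3 measured 12.95, 13.23, 13.17, 12.99 and 13.21, and group 4 measured 13.12, 13.01, 13.20, 13.05 and 12.95. It fell without overlap by 0.30 in group 3 (standard error 0.07, adjusted p = 0.0271) and by 0.35 in group 4 (standard error 0.06, adjusted p = 0.00565). Group 5, at 13.38, 13.21, 13.14, 13.24 and 13.35, overlapped the controls, with a change of −0.15 (95% interval −0.29 to −0.01, adjusted p = 0.169). The direct difference between groups 5 and 3 was not called. Ctsc in group 5 measured 12.07, 12.29, 12.25, 12.20 and 11.70 against 12.33, 12.47, 12.24, 12.24 and 12.29 in the controls, a change of −0.21 (adjusted p = 0.239).

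Ctsd, the main aspartic protease of the lysosome, fell by 0.31 in group 5 on day 4 (standard error 0.06, adjusted p = 0.0179). The controls measured 11.37, 11.61, 11.47, 11.47 and 11.54 and group 5 11.18, 11.15, 11.07, 11.28 and 11.23, without overlap. On day 14 it measured 11.56, 11.50, 11.46, 11.54 and 11.54 in the controls and 11.45, 11.27, 11.40, 11.17 and 11.32 in group 5. That fall by 0.20 (standard error 0.07, adjusted p = 0.0719) lost its call without group 2 replicate 1, 2, 4 or 5 or group 5 replicate 2, 4 or 5 (adjusted p up to 0.154) and after a further quantile normalization (adjusted p = 0.160). Ctsb, an abundant cysteine protease, fell by 0.17 in group 5 on day 14 (adjusted p = 0.0830), a call lost without group 2 replicate 1, 2, 4 or 5 or group 5 replicate 2, 3 or 5 (adjusted p up to 0.172). Ctsa, a carboxypeptidase that protects other lysosomal enzymes, fell by 0.31 in the unfasted rats on day 4 (standard error 0.06, adjusted p = 0.00606). On day 14 it fell by 0.22 (adjusted p = 0.0699), a call lost without group 1 replicate 1, 2 or 3 or group 2 replicate 1, 4 or 5 (adjusted p up to 0.187). The proteases Ctsh, Ctss and Ctsz were called in no comparison with group 2.

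Gaa and Lipa, the lysosomal enzymes that release glucose from glycogen and fatty acids from stored lipid, were called lower both without the fast and under restriction. Not every comparison was called. Neither gene was called in group 3 on either day, nor Gaa in group 4 or Lipa in group 5 on day 4. On day 14 Gaa measured 10.24, 10.23, 10.37 and 10.46 in the unfasted rats and 10.78, 10.54, 10.58, 10.65 and 10.71 in the controls. It measured 10.44, 10.24, 10.29, 10.42 and 10.34 in group 4 and 10.47, 10.31, 10.38, 10.28 and 10.22 in group 5. All 3 groups lay below every control rat. Gaa fell by 0.33 in group 1 (standard error 0.08, adjusted p = 0.0237), by 0.31 in group 4 (standard error 0.07, adjusted p = 0.0157) and by 0.32 in group 5 (standard error 0.07, adjusted p = 0.0104). Its second probe set had a change of −0.38 in group 5 (adjusted p = 0.00840 over all probe sets).

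On day 4 Gaa measured 10.09, 10.17, 10.19, 10.45 and 10.16 in the unfasted rats, 10.48, 10.64, 10.48, 10.59 and 10.58 in the controls, and 10.32, 10.35, 10.18, 10.43 and 10.43 in group 5. Both groups lay below the controls. It fell by 0.34 in group 1 (standard error 0.07, adjusted p = 0.00790). The fall by 0.21 in group 5 (standard error 0.06, adjusted p = 0.0969) stood at the threshold and lost its call on leaving out any 1 of the 10 rats (adjusted p of 0.107 to 0.198).

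Lipa on day 14 measured 11.51, 11.27, 11.62, 11.52 and 11.49 in the controls, 11.11, 11.07, 11.32, 11.22 and 11.26 in group 4, and 11.39, 10.86, 11.02, 11.04 and 11.18 in group 5. A control rat at 11.27 lay within both groups, and the other controls lay above them. It fell by 0.29 in group 4 (standard error 0.08, adjusted p = 0.0406) and by 0.38 in group 5 (standard error 0.10, adjusted p = 0.0234). The unfasted rats on day 14 had a mean of 11.27, against 11.48 in the controls, and were not called. On day 4 the controls measured 11.27, 11.41, 11.44, 11.64 and 11.43, the unfasted rats 11.04, 10.94, 10.95, 11.23 and 11.18, and group 4 11.09, 11.02, 11.30, 11.02 and 11.12. Lipa fell by 0.37 in group 1 (standard error 0.08, adjusted p = 0.0106), below all controls, and by 0.33 in group 4 (standard error 0.08, adjusted p = 0.0510). The latter call was lost without group 2 replicate 4 or group 4 replicate 2 or 4 (adjusted p up to 0.115).

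The remaining hydrolases and their helpers changed in single comparisons. Npc2, which carries cholesterol out of the lysosome, measured 11.88, 11.78, 11.83 and 11.82 in the unfasted rats on day 14 and 11.54, 11.52, 11.42, 11.57 and 11.63 in the controls, a rise by 0.29 without overlap (standard error 0.06, adjusted p = 0.0188). Psap, the precursor of the saposins that help degrade sphingolipids, fell by 0.23 in group 5 on day 14 (standard error 0.07, adjusted p = 0.0396), from 12.47 to 12.77 in the controls to 12.28 to 12.41. Hexa, a hexosaminidase, fell by 0.18 in group 1 on day 4 (adjusted p = 0.0727), a call lost without group 1 replicate 2, 3, 4 or 5 or group 2 replicate 1, 3 or 4 (adjusted p up to 0.160). Glb1, the lysosomal galactosidase, was called in no comparison with group 2.

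**Figure D3:**
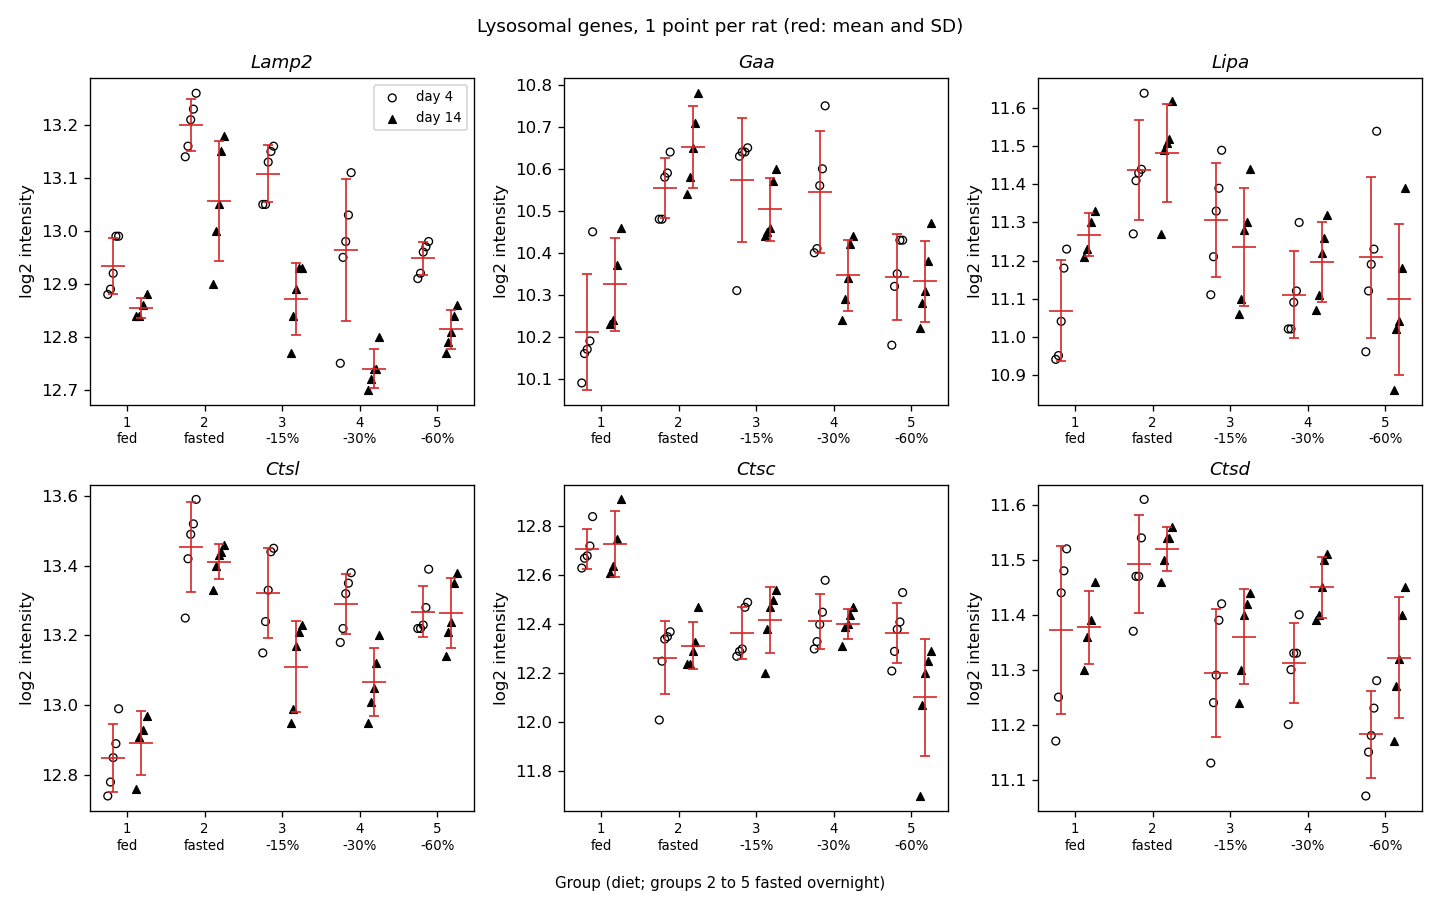
Log2 intensity of Lamp2, Gaa, Lipa, Ctsl, Ctsc and Ctsd (y axes, with a scale for each gene) in every rat by group (x axis), with open circles for day 4, filled triangles for day 14 and red bars for the mean and SD. Lamp2 and Gaa lie lower in groups 1 and 5 than in group 2 on both days, and Ctsc is highest in group 1.

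The proton pump that acidifies the lysosome was measured by 4 members, and none was called in group 5 against group 2. Atp6v0d1, a subunit of the membrane sector, measured 11.94, 11.89, 11.92, 11.85 and 11.94 in the day 14 controls, 12.10, 12.07, 12.03, 12.09 and 12.11 in group 3, and 12.09, 12.15, 12.16, 12.18 and 12.02 in group 4. Both restricted groups lay above all controls. It rose by 0.17 in group 3 (standard error 0.05, adjusted p = 0.0870) and by 0.21 in group 4 (standard error 0.06, adjusted p = 0.0357), and the call in group 3 remained only without group 3 replicate 3 (adjusted p up to 0.180 without any other rat). Group 5, at 11.95, 12.05, 12.12, 11.92 and 11.87, overlapped the controls with a change of 0.07 (95% interval −0.07 to 0.22). Atp6v1b2, a subunit of the catalytic sector, fell by 0.34 in the unfasted rats on day 4 (standard error 0.08, adjusted p = 0.0132), from 9.64 to 9.91 in the controls to 9.23 to 9.52. Atp6v1a, the catalytic subunit, and Atp6ap2, an accessory protein of the pump, were called in no comparison with group 2.

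The severest and the mildest restriction were compared directly on each day. On day 4, limma called no member between group 5 and group 3 (7 had an unadjusted p under 0.05; 0.83% of all genes were called). On day 14, 3 members were higher and 2 lower in group 5, 12.5% of the 40, against 9.55% of all genes (3.76% higher and 5.79% lower). Bnip3 was higher by 0.69 (1.61-fold, standard error 0.16, adjusted p = 0.0343) and Gabarapl1 by 0.55 (1.46-fold, standard error 0.09, adjusted p = 0.00852), each without overlap. Subunits of the pump moved apart, Atp6v1b2 being higher by 0.39 (standard error 0.06, adjusted p = 0.00794) and Atp6v1a lower by 0.28 (standard error 0.08, adjusted p = 0.0593), again without overlap. Sqstm1 measured 12.75, 12.59, 12.40, 12.69 and 12.80 in group 3 and 12.36, 12.41, 12.44, 12.34 and 12.23 in group 5, lower by 0.29 with overlap (standard error 0.08, adjusted p = 0.0638), a call lost with the mean of its probe sets (adjusted p = 0.147). The calls of Atp6v1a and Sqstm1 were both lost without group 3 replicate 1, 2 or 5 or group 5 replicate 1 or 5, which left 3 members called; that of Sqstm1 was also lost without group 3 replicate 4 and that of Atp6v1a without group 3 replicate 3.

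**Figure D4:**
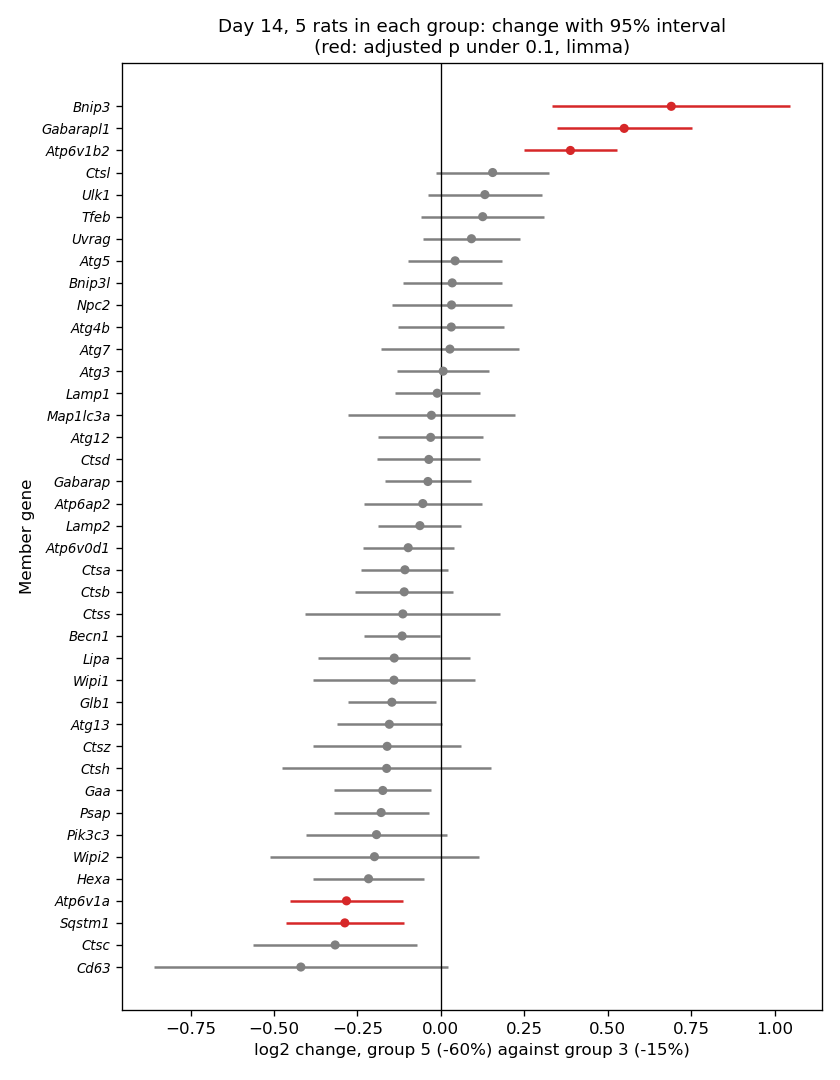
Log2 change of each measured member between group 5 and group 3 on day 14 (x axis; bars are 95% intervals from limma, members ordered by change on the y axis), in red where the adjusted p was under 0.1. Bnip3, Gabarapl1 and Atp6v1b2 lie to the right, and Atp6v1a and Sqstm1 to the left.

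Day 14 was compared with day 4 within each diet, where time on the diet, age and any batch of a day cannot be told apart. In control groups 1 and 2 limma called no member, and 0% and 0.00703% of all genes were called. At an unadjusted p under 0.05 there were 12 members in group 1 and 3 in group 2, with no share of all genes at that threshold. In group 3, 8 members were higher and 1 lower on day 14 (22.5%, against 12.8% of all genes, 8.93% higher and 3.85% lower). The calls of Bnip3l (higher by 0.27), Lamp1 (0.24), Atp6v0d1 (0.20) and Lamp2, which fell by 0.23, remained on leaving out any rat, though that of Lamp1 was lost with the mean of its probe sets (adjusted p = 0.160). Wipi1 was higher by 0.38, but its call remained only without day 4 replicate 2 or 3 or day 14 replicate 3 and was lost without any of the other 7 rats, in a fit of all 10 group and day means (adjusted p = 0.167) and with the mean of its probe sets (adjusted p = 0.132). Bnip3 (0.26) remained called only without day 4 replicate 1 or 3, Atp6v1a (0.16) only without day 4 replicate 1 or day 14 replicate 4, Atg3 (0.16) only without day 14 replicate 3 and Atg5 (0.15) only without day 14 replicate 4. Without other rats the adjusted p of these 5 members rose to as much as 0.199, and after a further quantile normalization all 5 calls were lost (adjusted p of 0.131 to 0.407). The call of Bnip3 was also lost in the fit of all 10 means (adjusted p = 0.243) and that of Atg5 with the mean of its probe sets (adjusted p = 0.462). This count fell to 4 without group 3 day 4 replicate 4 or 5 or day 14 replicate 1, 2 or 5, and to 5 without day 4 replicate 2. In group 4, Bnip3 alone was called (5.47% of all genes, 3.64% higher), higher by 0.36 (standard error 0.09, adjusted p = 0.0666), a call lost without day 4 replicate 1, 2, 4 or 5 or day 14 replicate 1 or 2 (adjusted p up to 0.151) and in the fit of all 10 means (adjusted p = 0.114).

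In group 5, 3 members were higher and 1 lower on day 14 than on day 4 (10% of the 40, against 6.71% of all genes, 3.9% higher and 2.81% lower). Gabarapl1 was higher by 0.66 without overlap (standard error 0.11, adjusted p = 0.0149), a call that leaving out any rat did not remove. Bnip3 was higher by 0.82 (standard error 0.22, adjusted p = 0.0635), Atp6v1b2 by 0.23 (adjusted p = 0.0902), and Sqstm1 was lower by 0.33 (adjusted p = 0.0888). These 3 calls were each lost without day 4 replicate 1 or 3 or day 14 replicate 1, 4 or 5 (adjusted p up to 0.164, 0.215 and 0.189). Those of Bnip3 and Sqstm1 were also lost without day 4 replicate 2, those of Atp6v1b2 and Sqstm1 without day 14 replicate 2, and that of Atp6v1b2 without day 4 replicate 5. With the mean of a gene's probe sets, those of Sqstm1 (adjusted p = 0.142) and Atp6v1b2 (adjusted p = 0.111) were lost, the latter also after a further quantile normalization (adjusted p = 0.102). The number of members called ranged from 1 without day 4 replicate 3 or day 14 replicate 1 or 4 to 7 without day 14 replicate 3, and was 2 without day 4 replicate 1 or 2 or day 14 replicate 2 or 5.

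Whether the change from group 2 differed between the days was tested as an interaction. For group 5, Gabarapl1 was called, as given above, where 2.04% of all genes were called, 0.844% in that direction. Without group 5 day 4 replicate 4 or day 14 replicate 3, 2 members were called. For groups 1, 3 and 4, limma called no member, with 5, 6 and 4 at an unadjusted p under 0.05 (0%, 0.591% and 0.134% of all genes were called). Without group 2 day 4 replicate 3 or group 3 day 4 replicate 1, 1 member was called in group 3.

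Further genes of the pathway, 131 measured outside the 40 members, were read from lists by role, written by hand with earlier results known. In group 5 on day 14, 15 were higher and 14 lower, 22.1% of the list against 19.8% of all genes (8.88% higher and 10.9% lower). By role, against the same shares of all genes, the 11 other cargo receptors had 6 higher and none lower, the 15 regulators 5 higher and 1 lower, and the 11 other genes of the initiation complex 3 higher. The 11 other lysosomal proteases had 5 lower and none higher, and the 24 other glycosidases, sulfatases and lipid hydrolases and the 20 membrane and sorting proteins each had 4 lower and none higher. Of the 13 genes of fusion and tethering none was called by limma (1 had an unadjusted p under 0.05).

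Retreg1, a receptor for autophagy of the endoplasmic reticulum, changed the most among the named genes of these lists. On day 14 it measured 9.78, 9.91, 10.39 and 9.70 in the unfasted rats, 11.18, 10.99, 10.42, 10.99 and 11.20 in the controls, and 12.40, 12.27, 11.85, 12.30 and 12.96 in group 5. The groups did not overlap. Retreg1 fell by 1.01 in group 1 (standard error 0.17, adjusted p = 0.00556) and rose by 1.40 in group 5 (2.64-fold, standard error 0.19, adjusted p = 0.000581). On day 4 the unfasted rats, at 9.40 to 10.54, overlapped the controls, at 9.39 to 10.93, with a change of −0.23 (95% interval −0.83 to 0.37, adjusted p = 0.644). Retreg1 was higher on day 4 by 1.12 in group 5 (standard error 0.27, adjusted p = 0.0393) and by 1.02 in group 4 (standard error 0.25, adjusted p = 0.0506), and it was higher by 1.22 in group 5 than in group 3 on day 14 (standard error 0.19, adjusted p = 0.00701).

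Fnip1, a partner of folliculin in nutrient signalling at the lysosome, rose by 0.71 in group 5 on day 14 (standard error 0.08, adjusted p = 0.000150) and by 0.44 in group 4 (adjusted p = 0.00720) and 0.35 in group 3 (adjusted p = 0.0197). It fell in the unfasted rats, by 0.69 on day 4 and by 0.39 on day 14. Sh3glb1, which bends membranes with the lipid kinase complex, fell by 0.51 in group 1 on day 4 (adjusted p = 0.000792) and rose by 0.47 in group 5 on day 14 (adjusted p = 0.00503). As with Gabarapl1, its change in group 5 differed between the days (interaction 0.59, standard error 0.11, adjusted p = 0.0213). Stbd1, a glycogen-binding receptor, rose by 0.78 in group 5 on day 14 (adjusted p = 0.0182) and by 0.99 in group 4 (adjusted p = 0.00908). Foxo3 measured 9.98, 9.80, 9.89, 10.42 and 10.55 in the controls and 10.67, 11.90, 10.36, 10.48 and 11.52 in group 5, a rise by 0.85 with overlap (standard error 0.28, adjusted p = 0.0638), the 2 highest rats standing well above the others. Atg14, a subunit of the Pik3c3 complex, rose by 0.42 (adjusted p = 0.00633), and Atp6v0e1, a subunit of the pump, by 0.46 (adjusted p = 0.00145).

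The falls in group 5 on day 14 were led by Prcp, a lysosomal carboxypeptidase, which measured 9.21, 9.11, 9.03, 8.96 and 9.34 in the controls and 8.53, 8.60, 8.61, 8.58 and 8.46 in group 5. It fell by 0.58 without overlap (standard error 0.08, adjusted p = 0.000581). Slc38a9, an amino acid sensor of the lysosomal membrane, fell by 0.45 (adjusted p = 0.00528) and Tmem192, a lysosomal membrane protein, by 0.42 (adjusted p = 0.00371). Smpd1, the acid sphingomyelinase, fell by 0.41 (adjusted p = 0.00186), Acp5, an acid phosphatase, by 0.38 (adjusted p = 0.0775), and Cpq, a lysosomal dipeptidase, by 0.37 (adjusted p = 0.0234). Smpd1 and Tmem192 were also lower in group 5 on day 4, by 0.35 (adjusted p = 0.0272) and 0.22 (adjusted p = 0.0773).

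**Figure D5:**
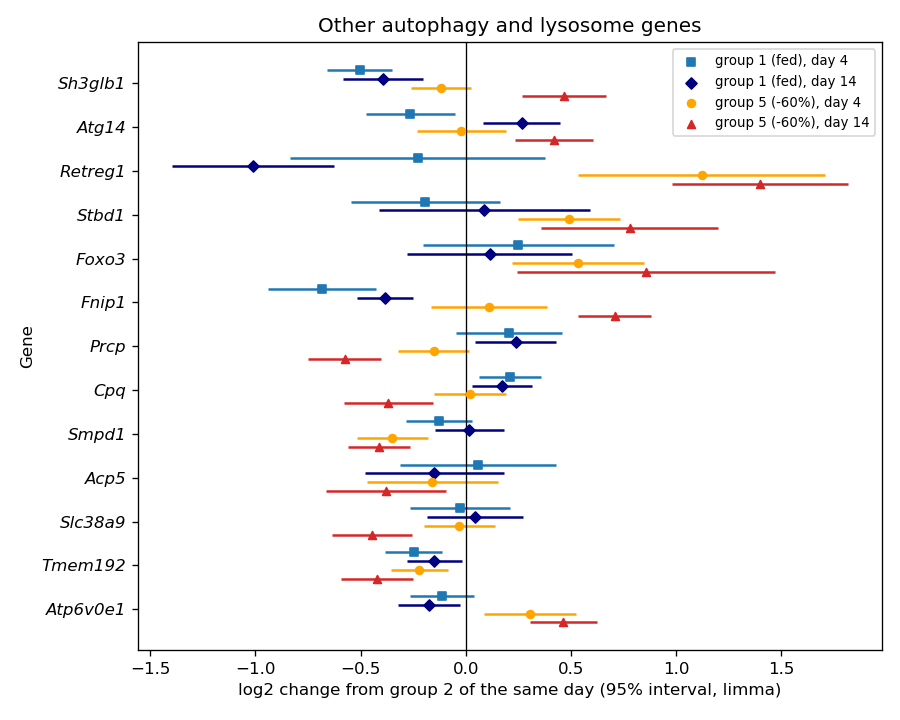
Log2 change from group 2 of the same day (x axis; bars are 95% intervals from limma) for 13 further autophagy and lysosome genes (y axis) in group 1 and group 5 on days 4 and 14. Retreg1 in group 5 lies farthest to the right, and Prcp, Slc38a9 and Tmem192 in group 5 on day 14 lie left of 0.

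Lysosomal genes are also abundant in macrophages, so macrophage markers were read in the same rats. Of 21 markers, 15 were measured, none below the dim level, with means from 7.13 (Adgre1) to 11.51 (Clec4f). Their summed intensity ranged from 17418 to 25063 in the day 14 controls, from 15967 to 21272 in group 5 and from 21371 to 26701 in group 1. In group 5 on day 14, where 10.9% of all genes were lower, 1 of the 15 was lower, Adgre1 by 0.39 (adjusted p = 0.0611). The median change of the list was −0.13. In group 1 on day 14, Adgre1 was higher by 0.52 (adjusted p = 0.0407). Of all 66 markers of liver cell types, 3 were higher and 11 lower in group 5 on day 14, 21.2% against 19.8% of all genes. The widest gap between summed levels was that of the 4 erythroid markers measured, whose summed intensity was 1273 to 3548 in group 5 and 7408 to 10714 in the controls, without overlap. This sum mostly follows its brightest gene, Hbb, a globin of red cells, which had a mean of 13.16 in the controls and 11.02 in group 5. Hbb thus fell by 2.14 (adjusted p = 0.000505), and Alas2, the first enzyme of heme synthesis in red cells, fell by 1.98 (adjusted p = 6.79e-06). The 4 markers did not all move alike, as the lowest marker mean was 5.82 in the controls and 5.75 in group 5. The sum of 11 stellate and fibroblast markers was 2546 to 4444 in group 5 and 3515 to 5856 in the controls, with overlap. The mean log2 of the list also overlapped, at 6.94 to 7.46 in group 5 and 7.42 to 8.06 in the controls. Of these markers, Lox fell by 4.20 (adjusted p = 2.37e-05) and Pdgfrb by 0.80 (adjusted p = 0.00429). These 2 do not stand for the list, whose brightest gene had a mean of 10.05 in group 5 and 10.32 in the controls. The sum of 10 T and NK cell markers, 2 of them lower (against 10.9% of all genes), was 684 to 752 against 744 to 897. In group 1, 4 of the 11 stellate and fibroblast markers were higher on each day (36.4%, against 9.76% of all genes called higher on day 4 and 7.26% on day 14). The part of these cell types in the changes of the members was not tested.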

How the data were processed

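Liver RNA of 49 rats was hybridised to Affymetrix rat genome arrays, 1 per rat. The authors normalized the arrays by RMA (R 3.0.1, affy 1.38.1, with quality checks in Affymetrix Expression Console) and deposited linear intensity values as whole numbers for 31042 probe sets, from 8 to 33095 with a median of 83, where rounding gives a log2 step of 0.0173. RMA makes the arrays alike in distribution, so a shift of all genes would not be seen. The log2 was taken here, and sample medians lay between 6.34 and 6.43. Gene symbols came from the platform annotation: 20826 probe sets had 1 symbol, 436 had several and 9780 none, and the latter kinds were left out. Of the former, 20758 were found in a RefSeq gene table, and no symbol changed. No array was a copy of another, and correlations within groups were 0.989 to 0.995.

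Groups were compared by limma 3.58.1 in R 4.3.3 (lmFit and eBayes), fitted separately for each comparison, with p-values adjusted by Benjamini-Hochberg over 14217 genes and a threshold of 0.1, the false discovery rate of the methods. The EBarrays model named there was not run. Figures and promoter scans were made in Python 3.11.15. The fits were tested on simulated data. The members and the gene lists, written by hand from general knowledge, were chosen with earlier results of these data known. Values in every rat were given, by rule, for the 4 largest called rises and falls among the members in each of the 8 comparisons with group 2 and for the LC3 and GABARAP family, and of each further list the 2 called genes with the largest change in group 5 on day 14 were named. Other members named were chosen after their values were seen. Alternatives were a threshold of 0.05, a single fit of all 10 group and day means, genes above log2 5.21 (11575 of them), the mean of a gene's probe sets, a further quantile normalization and leaving out each rat.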

Additional observations from a re-analysis of the deposited data

Results flagged for a closer look

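In each named member and group of rats, a rat was set aside for a closer look where its gap to the nearest other rat was large for the range of the group. Of 170 groups of rats tested, 6 were marked, where chance marks about 1 in 20. Gaa stood at 10.45 in a rat of group 1 on day 4 (the others at 10.09 to 10.19) and at 10.31 in a rat of group 3 on day 4 (the others at 10.63 to 10.65). Gabarapl1 stood at 11.88 in a control rat on day 4 (the others at 12.06 to 12.13), and Wipi1 at 8.85 in the same rat (the others at 7.94 to 8.10). Pik3c3 stood at 9.57 in a rat of group 1 on day 14 (the others at 8.63 to 8.66), and Ulk1 at 9.27 in a rat of group 3 on day 14 (the others at 9.11 to 9.15).

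The change of Gabarapl1 in group 5 differed between the days by 0.79 on the log2 scale in limma (standard error 0.13, adjusted p = 0.0107), with all 5 rats of group 5 above the controls on day 14 and on both sides of them on day 4.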

How the results depend on the processing

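No call of a member changed direction under any alternative that was run. Directions under the alternatives were not read for the further genes, the cell type markers or the members without a call. Of 68 calls of members, 44 remained on leaving out each rat in turn and 24 were lost without at least 1, as given beside them. A fit of all 10 group and day means called, against group 2, 4 members in group 4 (7.91% of all genes) and 5 in group 5 (10.2%) on day 4, and 5 in group 3 (9.03%) and 18 in group 5 (27.5%) on day 14. Between groups 5 and 3 it called 3 (2.3%) on day 4 and 9 (15.7%) on day 14. Between the days it called 3 in group 1 (1.42%), 7 in group 4 (8.46%) and 12 in group 5 (14.9%), and in the interaction of group 5 it called 2 (4.79%). The same fit lost the calls of Wipi1, Pik3c3, Wipi2 and Bnip3 given above. At an adjusted p under 0.05, 0 were called in group 4 on day 4 (2.71%), 1 in group 3 (4.55%) and 6 in group 5 (14.5%) on day 14, 3 between groups 5 and 3 on day 14 (5.05%), and 4, 0 and 1 between the days in groups 3, 4 and 5 (6.59%, 2.34% and 3.49%). A further quantile normalization gave 4, 2 and 7 between the days in groups 3, 4 and 5 (8.95%, 5.63% and 8.31%). In group 4, leaving out dim genes gave 4 (7.53%), as did averaging the probe sets (5.11%).

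Without 1 rat at a time, the members called against group 2 on day 4 numbered 12 to 14 in group 1, 0 in group 3, 0 to 3 in group 4 and 2 to 3 in group 5, and on day 14 they numbered 6 to 8, 1 to 4, 8 to 10 and 7 to 12. Between groups 5 and 3 they numbered 0 on day 4 and 3 to 6 on day 14, between the days 0 in groups 1 and 2, 4 to 7 in group 3, 0 to 2 in group 4 and 1 to 7 in group 5, and in the interactions 0 in groups 1 and 4, 0 to 1 in group 3 and 1 to 2 in group 5. The causes of these shifts were not tested. No paired analysis was possible because each rat belongs to 1 group and the replicate numbers only name rats. With 4 or 5 arrays a group, changes below about the size of the calls given here may go unseen.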
